A study of Mus musculus with 18 samples.

Results

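The semaphorins, plexins, neuropilins, ephrins and Eph receptors, the guidance genes of the growing nervous system, were followed through the RNA of a mouse glioma grown in culture, in immune-competent hosts and in immune-deficient hosts. The genes were chosen by symbol from the protein-coding genes of the deposited table, as the semaphorins of classes 3 to 7, the plexins, both neuropilins, and the ephrins and Eph receptors of types A and B. This gave 53 of the 48795 genes in the table: 7 class 3 semaphorins, 13 membrane-bound semaphorins, 9 plexins, 2 neuropilins, 5 ephrin-A ligands, 3 ephrin-B ligands, 9 EphA receptors and 5 EphB receptors. Each of the 53 had at least 1 read in some library.

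The tumour cells were GL261, a chemically induced glioma line of C57BL/6 mice, carrying green fluorescent protein (GFP). The 18 libraries form 6 groups of 3. Cultured GFP+ cells were the GL261 GFP cells that were injected, and they carry the same GFP sort label as the tumour-grown cells. WT GFP+ cells and Pfp/Rag2-/- GFP+ cells were sorted from tumours in C57BL/6 wild-type mice and in C57BL/6 Pfp/Rag2-/- mice, which lack perforin and Rag2 and so have no mature T and B cells and no perforin-dependent killing by the natural killer cells they still have. WT GFP- cells were the unlabelled cells of the wild-type tumours, and unsorted cells of both hosts held tumour and host cells together. Tumours came from symptomatic mice, 6 per host, and were digested with collagenase before sorting. Every tumour came from 1 injected line, the age of the mice is not stated, and how many mice went into 1 library is not stated either, so p-values measure the spread between these libraries, which may be partly technical.

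Values are the authors' normalized counts, reads divided by 1 size factor per library. Each library held 19172814 to 21141662 reads. The mean was under 10 for 14 of the 53 genes in culture, 12 in WT GFP+, 10 in Pfp/Rag2-/- GFP+ and 10 in GFP- cells, 4 in WT unsorted and 1 in Pfp/Rag2-/- unsorted tumours, and counting error is large for such genes. Summed over 12 macrophage and microglia markers, the level was 233082 to 313185 in WT GFP- libraries, 13608 to 16203 in WT unsorted, 4504 to 5356 in Pfp/Rag2-/- unsorted, 2961 to 7706 in WT GFP+, 1447 to 7989 in Pfp/Rag2-/- GFP+ and 93.5 to 111 in cultured libraries, where Fcgr1, Aif1, Tyrobp and Itgam had no read. GFP+ libraries numbered 1 held the highest sum in either host. Summed over 8 T cell markers, the level was 13112 to 18015 in GFP- cells, 593 to 1000.5 in WT unsorted and 211 to 292 in Pfp/Rag2-/- unsorted libraries. A summed level of 8 early response genes, which respond to tissue handling, was 431059 to 448922 in GFP- cells and 96413 to 167389 and 91132 to 101292 in GFP+ cells of WT and Pfp/Rag2-/- tumours, but 11882 to 12675 and 14036 to 16996 in the unsorted tumours and 11001 to 11426 in culture.

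Semaphorins steer axons, vessels and immune cells by binding plexins, whose cytoplasmic part acts on small GTPases of the Rap and R-Ras type. Secreted class 3 semaphorins mostly need a neuropilin beside the plexin, with Sema3e, which binds plexin-D1 directly, as an exception, whereas classes 4 to 7 are held in the membrane and bind plexins themselves. Eph receptors form a large family of receptor tyrosine kinases and bind ephrins on neighbouring cells, with the GPI-anchored ephrin-A ligands pairing mainly with EphA and the transmembrane ephrin-B ligands mainly with EphB. In gliomas both systems are known from work on invasion, vessel growth and immune cell entry.

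The upstream sequences of 4 genes that the results turn on are shown because these genes moved with growth in a tumour, with the host, or with both, and because Sema3d and Sema3e, of 1 cluster on chromosome 5, differed in how they moved. Each is the 250 bases before the annotated start, from the RefSeq table (build GRCm38.p6), which held 47 of the 53 genes. All 4 are on the + strand, and capitals mark matches to the GC box GGGCGG on either strand.
Sema3d, chr5:12382916-12383165: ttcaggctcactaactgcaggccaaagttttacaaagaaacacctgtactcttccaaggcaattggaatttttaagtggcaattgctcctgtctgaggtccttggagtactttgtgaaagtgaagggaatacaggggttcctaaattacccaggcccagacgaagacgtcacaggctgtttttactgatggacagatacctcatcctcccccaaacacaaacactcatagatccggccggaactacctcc
Sema3e, chr5:14025026-14025275: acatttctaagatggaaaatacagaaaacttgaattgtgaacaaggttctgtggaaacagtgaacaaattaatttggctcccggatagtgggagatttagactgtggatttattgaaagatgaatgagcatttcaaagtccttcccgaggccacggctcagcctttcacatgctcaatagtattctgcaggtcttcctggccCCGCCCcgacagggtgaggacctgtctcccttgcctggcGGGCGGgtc
Nrp2, chr1:62703067-62703316: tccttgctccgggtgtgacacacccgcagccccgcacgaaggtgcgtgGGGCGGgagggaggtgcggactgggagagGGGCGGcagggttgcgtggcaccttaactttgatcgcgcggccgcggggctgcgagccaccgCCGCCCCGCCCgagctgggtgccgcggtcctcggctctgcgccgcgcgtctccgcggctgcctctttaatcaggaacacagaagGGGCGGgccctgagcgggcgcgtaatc
Plxnb3, chrX:73756853-73757102: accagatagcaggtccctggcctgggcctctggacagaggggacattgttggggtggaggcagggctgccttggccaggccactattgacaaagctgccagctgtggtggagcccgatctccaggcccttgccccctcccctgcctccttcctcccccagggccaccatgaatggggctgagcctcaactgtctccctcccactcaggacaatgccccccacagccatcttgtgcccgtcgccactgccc

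The GC box was found 5 times upstream of Nrp2, 2 times upstream of Sema3e and 0 times upstream of Sema3d and Plxnb3. Of all 32817 windows of this length, 32.7% held it. Nrp2 had 32 CG pairs, against 7 for Sema3e, 4 for Sema3d and 3 for Plxnb3, and the median window had 6. The hypoxia response core ACGTG, the STAT-type element TTCNNNGAA and the AP-1 type element TGANTCA, each searched on both strands, were in none of the 4 windows, and were in 16.6%, 7.01% and 6.75% of all windows. A match or its lack describes these letters only.

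Plexins made up the largest share of guidance gene RNA in every group other than GFP- cells, where membrane semaphorins led. On a scale per kilobase of exon (GENCODE vM21), which allows levels to be set beside each other between genes, Plxnb2, a receptor of class 4 semaphorins, was the highest of the 53 genes in culture at 1403 ± 42 normalized counts per kb (SD, n = 3). It was also the highest in WT GFP+ cells, at 886 ± 49.9 per kb, and in WT unsorted tumours, at 713 ± 146 per kb. In Pfp/Rag2-/- GFP+ cells Plxnb3, the receptor of Sema5a, was first at 1529 ± 21.8 per kb, as it was in Pfp/Rag2-/- unsorted tumours at 910.1 ± 163 per kb. In GFP- cells the highest means were those of Sema4d, a class 4 semaphorin of leukocytes that binds plexin-B1, at 1248 ± 103 per kb, and of Sema7a, at 1144 ± 356 per kb, which overlapped, with Sema7a ahead in library 1.

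Membrane semaphorins held 53.6% ± 3.25 (SD, n = 3) of the summed per-kb level of the 53 genes in GFP- cells. Their share was 21.2% ± 0.092 in culture, 18.3% ± 1.43 and 19.3% ± 1.69 in WT and Pfp/Rag2-/- GFP+ cells, and 21.5% ± 1.23 and 23.6% ± 0.52 in the unsorted tumours. The ranges of the GFP- libraries and all other libraries did not overlap. Secreted class 3 semaphorins ran the other way, with 0.96% ± 0.74 in GFP- cells, 13.2% ± 0.1 in culture and 16.6% ± 1.80 in WT GFP+ cells. Within class 3 the gene with the highest mean was Sema3b in culture, Sema3e in WT tumours, sorted or not, and Sema3d in Pfp/Rag2-/- GFP+ cells. Sema3d and Sema3e were close in Pfp/Rag2-/- unsorted tumours, at 378 ± 50.8 and 373 ± 18.5 per kb, and Sema3e led in libraries 1 and 2. The neuropilin share was 8.35% ± 0.26 in culture, 4.37% ± 0.62 in WT GFP+ cells and 1.69% ± 0.11 in Pfp/Rag2-/- GFP+ cells. These shares are descriptions and were not tested.

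**Figure D1:**
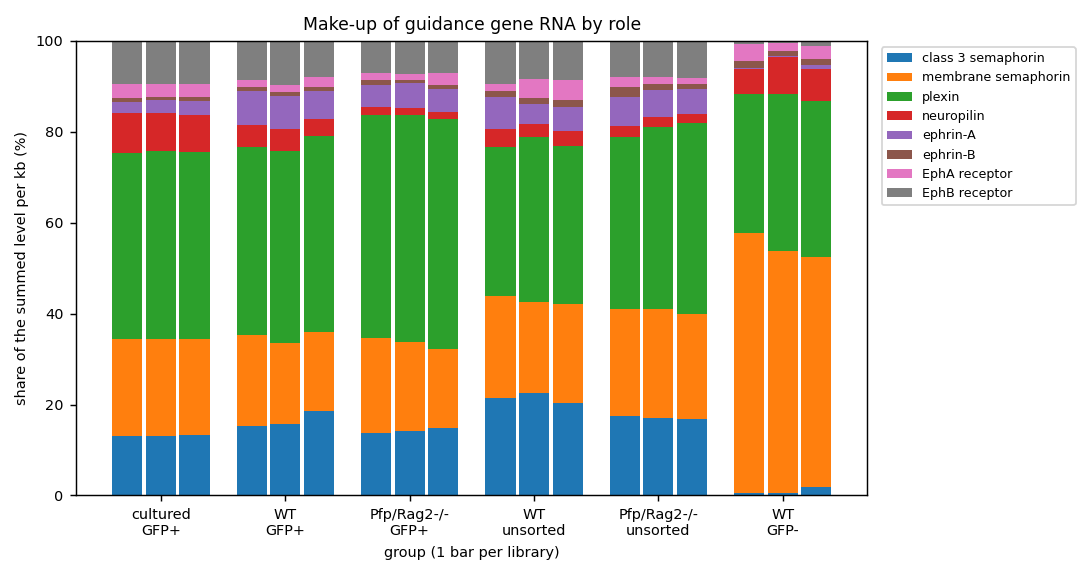
Share of the summed level per kb of the 53 genes held by each role (y axis, %), with 1 bar per library in 6 groups of 3 libraries (x axis). Membrane semaphorins average 53.6% in WT GFP- cells and 23.6% or less in the other groups, and class 3 semaphorins average 0.96% in WT GFP- cells.

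**Figure D2:**
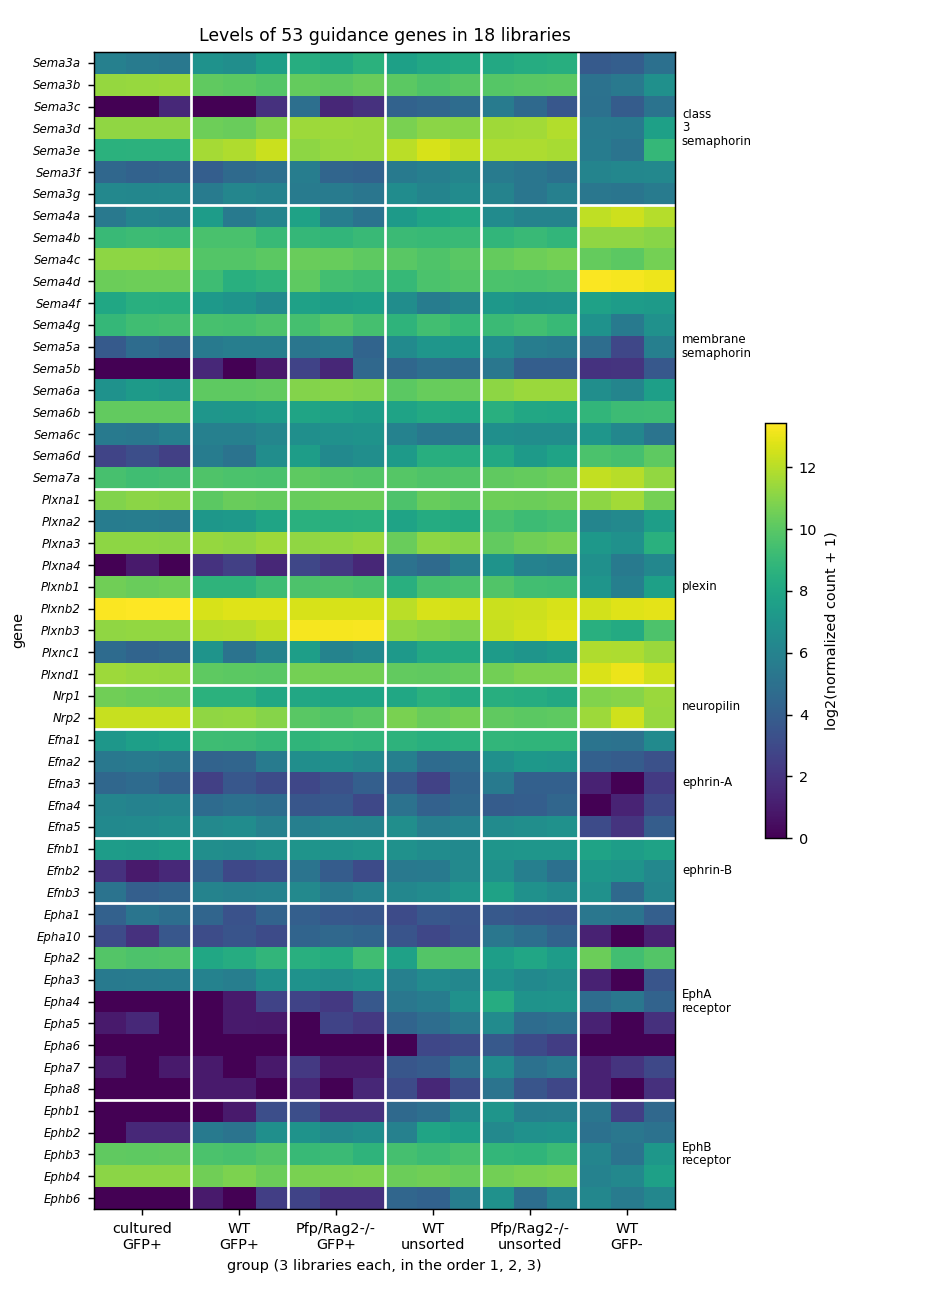
Level of each of the 53 genes (rows, ordered by role) in each of the 18 libraries (columns, 3 per group), as log2(normalized count + 1) by colour. The WT GFP- libraries stand apart by high Sema4a, Sema4d, Plxnc1 and Plxnd1, and Epha5, Epha7 and Epha8 are brightest in the unsorted tumours.

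The first comparison set tumour-grown GFP+ cells against the same cells in culture. Growth in either host went with more Sema3e, Sema6a, Sema3a, Plxna2, Plxnb3 and Efna1 RNA and with less Sema6b, Nrp1, Nrp2, Sema3b, Sema4d and Plxnb1. In WT tumours 14 genes were higher and 18 lower than in culture (30.3% and 35.3% of all genes tested) among the 41 that passed the filter on low values (10 or more in at least 3 of the 6 libraries). That is 78% called, against 65.6% of all genes tested, and the median log2 difference was -0.35 against -0.04. In Pfp/Rag2-/- tumours 18 were higher and 21 lower (35.1% and 37.1% of all genes tested) among 42, or 92.9% called against 72.2% of all genes, with medians of -0.03 and -0.01. Calls are limma tests on log2(normalized count + 1) with Benjamini-Hochberg adjustment over all genes tested. Both comparisons use the same 3 cultured libraries, so their likeness is no independent support, and 2 genes in each had passed with every cultured value under 10 and so had to differ. Efna3 in both hosts, and Efna4 and Epha10 in Pfp/Rag2-/- hosts, also passed the filter only through the group where each was higher. These calls are among the counts above and support nothing.

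Among the secreted ligands, Sema3e stood at 382, 396 and 402 in the cultured libraries. It was 3206, 3696 and 5319 in WT GFP+ and 2299, 2634 and 2784 in Pfp/Rag2-/- GFP+ cells, so that every tumour library lay above every cultured one. The change was 10.4-fold in WT (log2 difference 3.34, SE 0.16, adjusted p = 6.35e-07) and 6.55-fold in Pfp/Rag2-/- hosts (log2 difference 2.70, SE 0.07, adjusted p = 6.76e-09). Sema3a, the classic growth cone collapsing factor that acts through Nrp1, was 56.7, 48.1 and 41 in culture, 114, 97.9 and 187 in WT and 331, 277 and 389 in Pfp/Rag2-/- GFP+ cells. It rose without overlap in both (WT log2 difference 1.39, SE 0.25, adjusted p = 0.0013; Pfp/Rag2-/- log2 difference 2.75, SE 0.16, adjusted p = 8.44e-07). Sema3b, another neuropilin ligand, went down from 2592, 2646 and 2733 to 1135, 1069.8 and 905 in WT (log2 difference -1.36, SE 0.08, adjusted p = 2.4e-06) and 1207, 1154 and 1325 in Pfp/Rag2-/- cells (log2 difference -1.11, SE 0.06, adjusted p = 2.88e-07). Sema3d took opposite directions, with 2391, 2378 and 2381 in culture, 1431, 1332 and 1926 in WT (log2 difference -0.63, SE 0.12, adjusted p = 0.00183) and 2814, 2824 and 2773 in Pfp/Rag2-/- cells (log2 difference 0.23, SE 0.03, adjusted p = 0.000259). Its cultured libraries thus lay between those of the 2 hosts, and the host difference itself is tested further on.

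Of the membrane semaphorins, Sema6a and Sema6b, close relatives that bind class A plexins, moved in opposite directions. Sema6a was 115, 162 and 134 in culture, 1119, 1094 and 1193 in WT GFP+ and 1993, 2072 and 1896 in Pfp/Rag2-/- GFP+ cells, an increase of 8.29-fold in WT (log2 difference 3.05, SE 0.12, adjusted p = 2.63e-07) and 14.5-fold in Pfp/Rag2-/- hosts (log2 difference 3.86, SE 0.11, adjusted p = 1.15e-08). Sema6b was 1179.8, 1180.2 and 1193 in culture and 135, 138 and 168 in WT and 226, 205 and 181 in Pfp/Rag2-/- cells, an 8.07-fold (log2 difference -3.01, SE 0.10, adjusted p = 9.43e-08) and 5.81-fold fall (log2 difference -2.54, SE 0.08, adjusted p = 2.41e-08). No tumour library of either gene reached into the cultured range. Sema6d, a plexin-A1 ligand, was 5.67, 8.48 and 4.77 in culture, 49.8, 34.2 and 94.9 in WT and 181, 83.6 and 99.5 in Pfp/Rag2-/- cells (Pfp/Rag2-/- log2 difference 4.02, SE 0.33, adjusted p = 6.25e-06). In WT cells it was higher too (log2 difference 2.96, SE 0.40, adjusted p = 0.000236). With every cultured value under 10, Sema6d passed the filter through the tumour libraries and had to differ, so these tests support nothing. Sema4d fell from 1369, 1441 and 1444 to 614, 352 and 425 in WT cells (log2 difference -1.65, SE 0.17, adjusted p = 5.47e-05) and to 1106, 650.3 and 590.4 in Pfp/Rag2-/- cells (log2 difference -0.91, SE 0.20, adjusted p = 0.00261), where library 1, the one with the highest macrophage marker sum, was the nearest to culture. Sema4f, a membrane semaphorin of neural tissue, was 253, 353 and 338 in culture and 148, 124 and 84.7 in WT cells (log2 difference -1.42, SE 0.21, adjusted p = 0.000467), without overlap.

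Among the plexins, Plxna2, the receptor of Sema6a, rose together with its ligand. Its levels were 48.2, 50.9 and 47.7 in culture, 136, 147 and 228 in WT (log2 difference 1.74, SE 0.20, adjusted p = 0.000103) and 367, 360.0 and 367 in Pfp/Rag2-/- GFP+ cells (log2 difference 2.87, SE 0.10, adjusted p = 2.83e-08). Plxnb3 was 2361, 2465 and 2466 in culture, 3856, 3928 and 4762 in WT (log2 difference 0.78, SE 0.08, adjusted p = 5.02e-05) and 9852, 9842 and 10092 in Pfp/Rag2-/- cells (log2 difference 2.03, SE 0.04, adjusted p = 1.03e-09), so the 3 groups did not overlap. Plxnb1, the Sema4d receptor, was lower than the 1487, 1318 and 1434 of culture at 427, 422 and 612 in WT cells (log2 difference -1.55, SE 0.14, adjusted p = 2.09e-05), and at 830.1, 866 and 767 in Pfp/Rag2-/- cells (log2 difference -0.78, SE 0.06, adjusted p = 6.1e-06). Plxnd1, the Sema3e receptor, moved against its ligand, with 2826, 2602 and 2562 in culture, 1104, 1061 and 1012 in WT (log2 difference -1.33, SE 0.06, adjusted p = 4.37e-07) and 1569, 1527 and 1548 in Pfp/Rag2-/- cells (log2 difference -0.78, SE 0.05, adjusted p = 8.51e-07). Plxnc1, the Sema7a receptor, was 24.6, 18.9 and 21.9 in culture and 186, 63.4 and 80.1 in Pfp/Rag2-/- cells (log2 difference 2.13, SE 0.36, adjusted p = 0.000637), with library 1 again the highest, and 124, 33.3 and 63.5 in WT cells (log2 difference 1.52, SE 0.42, adjusted p = 0.0114). Plxnb2 fell by 0.66 on the log2 scale in WT and by 0.76 in Pfp/Rag2-/- cells, from 10479.5, 10894 and 11119 to 6395, 7057 and 7069 and 6392, 6395 and 6399.

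Both neuropilins, the co-receptors of class 3 semaphorins and of VEGF, were lower in tumours. Nrp1 went from 1497, 1379 and 1316 in culture to 377, 380.0 and 262 in WT (log2 difference -2.05, SE 0.14, adjusted p = 4.55e-06) and 268, 237 and 235 in Pfp/Rag2-/- GFP+ cells (log2 difference -2.50, SE 0.07, adjusted p = 1.3e-08). Nrp2 went from 5101, 5037 and 5046 to 2343, 2419.9 and 2051 in WT (log2 difference -1.16, SE 0.06, adjusted p = 1.54e-06) and 1006, 871 and 1037 in Pfp/Rag2-/- cells (log2 difference -2.38, SE 0.06, adjusted p = 7.12e-09). The 3 groups of Nrp2 values did not overlap, with WT cells between culture and Pfp/Rag2-/- cells.

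In the ephrin system, Efna1, the main ligand of EphA2, and Epha2 itself moved in opposite directions. Efna1 was 138, 189 and 220.4 in culture and 605, 587 and 504 in WT (log2 difference 1.65, SE 0.17, adjusted p = 4.4e-05) and 443, 486 and 466 in Pfp/Rag2-/- cells (log2 difference 1.37, SE 0.15, adjusted p = 4.66e-05). Epha2 was 911, 836 and 859 in culture, 258, 323 and 462 in WT (log2 difference -1.36, SE 0.18, adjusted p = 0.000228) and 353, 308 and 642 in Pfp/Rag2-/- cells (log2 difference -1.07, SE 0.23, adjusted p = 0.00244), without overlap. Ephb3 was 1146, 1112 and 1154 in culture, 787, 742 and 898 in WT (log2 difference -0.50, SE 0.08, adjusted p = 0.000515) and 538, 565 and 435 in Pfp/Rag2-/- cells (log2 difference -1.16, SE 0.09, adjusted p = 4.95e-06). Ephb2 was all but missing from culture, with 0, 2 and 2 reads, and 45, 37 and 112 reads were counted in WT GFP+ and 130, 83 and 103 in Pfp/Rag2-/- GFP+ cells. It passed the filter through the tumour libraries and had to differ, so its calls support nothing, and no fold is given against so few reads. Ephb4, the receptor of ephrin-B2, kept a high level throughout, 2204 to 2228 in culture, 1355 to 1771 in WT and 1681 to 1764 in Pfp/Rag2-/- cells, with called falls (log2 -0.55 and -0.37).

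The unsorted tumours, whose early response sum was given above, held Sema3e at 4238 to 6321 in WT and 3269 to 3592 in Pfp/Rag2-/- hosts and Sema6a at 1062 to 1309 and 2323 to 2737. The part of the higher early response sum of the sorted tumour cells in the differences from culture was not tested. For Epha2 in Pfp/Rag2-/- cells, a fit of all 18 libraries gave an adjusted p of 0.0579. Scaling by the total of recovered reads moved the median of all genes from -0.01 to 0.16 in the Pfp/Rag2-/- comparison and gave 18 higher and 19 lower guidance genes there.

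**Figure D3:**
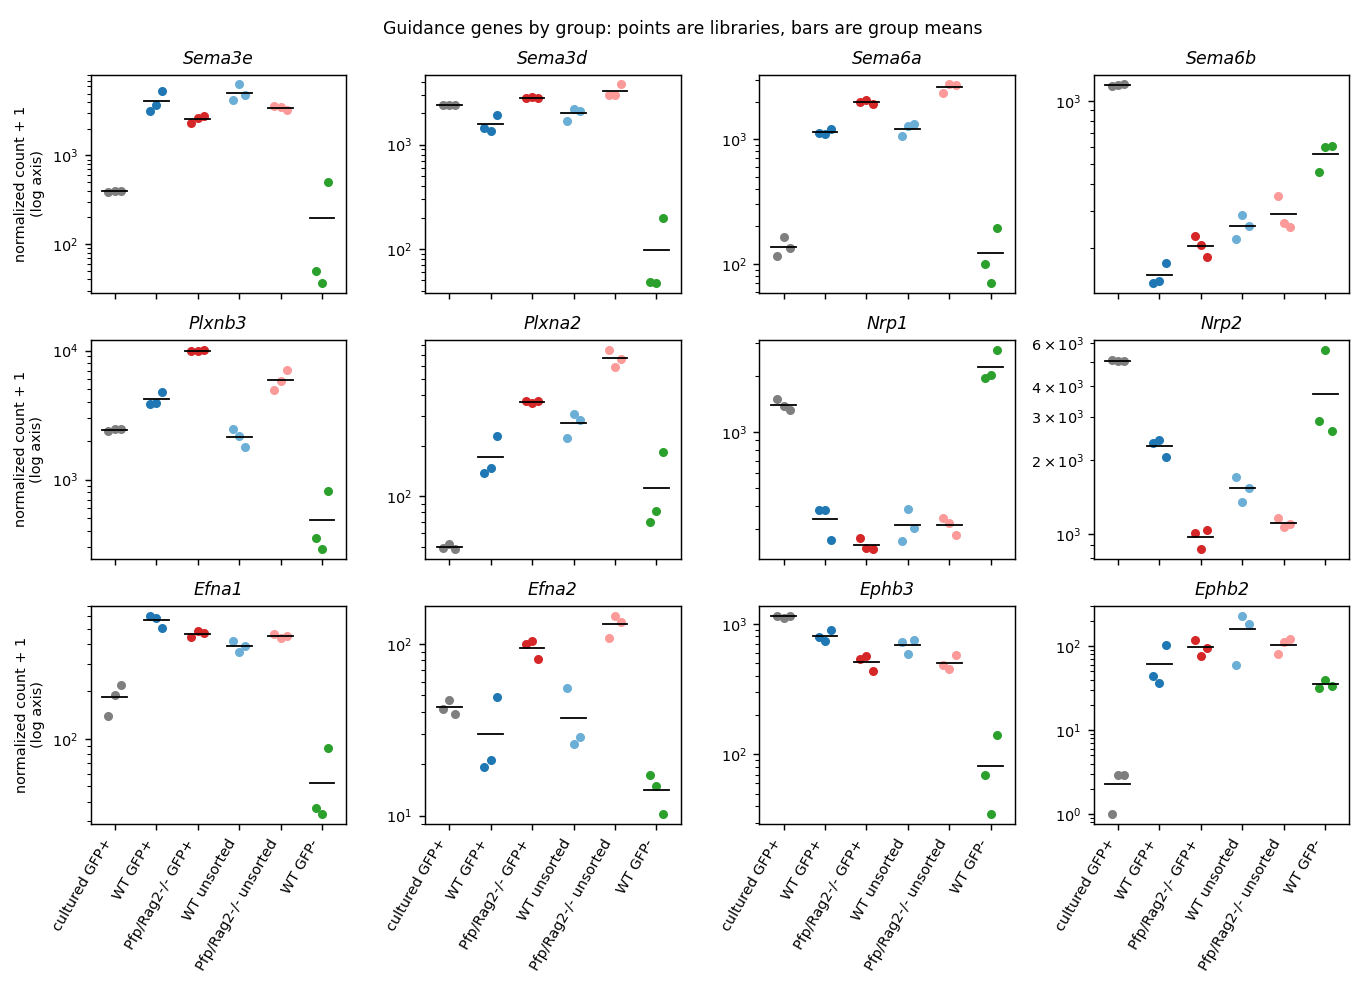
Normalized count + 1 (y axis, log scale) of 12 guidance genes in each library (points) of the 6 groups (x axis), with group means as bars. Sema3e and Sema6a are higher in every tumour-grown GFP+ and unsorted library than in culture, Sema6b and Nrp1 are lower, and Nrp2 and Plxnb3 separate the hosts.

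Genes below the filter were few-read genes. Sema5b, Epha4, Epha6, Epha8, Ephb1 and Ephb6 had no read in any cultured library, and Plxna4, Sema3c, Epha5, Epha7 and Efnb2 reached at most 2.83 there. These 11 failed the filter in both comparisons with culture, and Epha10 (2.83 to 11.4 in culture and 7.37 to 10.5 in WT GFP+ cells) failed in the WT one only.

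The second question was which guidance genes of the GFP+ tumour cells differed with the host. GFP+ cells from WT hosts had less Plxnb3, Plxna2, Sema3a, Sema3d, Sema6a and Sema6c RNA than those from Pfp/Rag2-/- hosts, and more Nrp2, Ephb3 and Sema3e. Of 42 genes tested, 4 were higher in WT and 14 lower (15.3% and 15% of all genes tested). The 42.9% called compares with 30.4% of all genes tested, and the median difference was -0.29 against -0.02. The 14 lower genes were 2 of 6 tested class 3 semaphorins, 6 of 12 membrane semaphorins, 4 of 8 plexins, 1 of 4 ephrin-A ligands and 1 of 4 EphA receptors.

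Plxnb3 showed the largest gap between hosts among the plexins. It was 3856, 3928 and 4762 in WT and 9852, 9842 and 10092 in Pfp/Rag2-/- GFP+ cells. The highest WT library lay under the lowest Pfp/Rag2-/- one, a 2.37-fold difference (log2 difference -1.25, SE 0.08, adjusted p = 0.000204). Plxna2 was likewise 2.14-fold lower in WT, at 136, 147 and 228 against 367, 360.0 and 367 (log2 difference -1.13, SE 0.19, adjusted p = 0.00623). Its ligand Sema6a stood at 1119, 1094 and 1193 against 1993, 2072 and 1896 (log2 difference -0.81, SE 0.06, adjusted p = 0.000267). So Sema6a and Plxna2, both higher in tumours than in culture, were higher still in Pfp/Rag2-/- hosts. Sema6c, another class 6 semaphorin, was 56.5, 56.1 and 71.8 in WT and 103, 111 and 117 in Pfp/Rag2-/- cells (log2 difference -0.84, SE 0.16, adjusted p = 0.0101), and quantile normalization gave it an adjusted p of 0.0682.

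The secreted semaphorins of the chromosome 5 cluster split by host. Sema3d was 1431, 1332 and 1926 in WT and 2814, 2824 and 2773 in Pfp/Rag2-/- cells (log2 difference -0.86, SE 0.13, adjusted p = 0.00402), and Sema3a was 114, 97.9 and 187 and 331, 277 and 389 (log2 difference -1.36, SE 0.25, adjusted p = 0.00858), both lower in WT without overlap. Sema3e went the other way, with 3206, 3696 and 5319 in WT and 2299, 2634 and 2784 in Pfp/Rag2-/- cells (log2 difference 0.63, SE 0.18, adjusted p = 0.0363). In the genome the 3 genes lie in the order Sema3d, Sema3a and Sema3e, with gaps of 536.5 kb and 422.7 kb. The Sema3e call was lost without WT library 2 or any 1 Pfp/Rag2-/- library (adjusted p 0.0758 to 0.0927), and also under quantile normalization (0.068), scaling by the total of recovered reads (0.0663) and a fit of all 18 libraries (0.54). That last fit also ended the sorted calls of Sema3d (adjusted p 0.128), Sema6c (0.104) and Ephb3 (0.178).

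Nrp2 was the guidance gene most raised in WT cells among those with a mean of 100 or more. Its levels were 2343, 2419.9 and 2051 in WT and 1006, 871 and 1037 in Pfp/Rag2-/- cells. The lowest WT library lay above the highest Pfp/Rag2-/- one, a 2.34-fold difference (log2 difference 1.23, SE 0.09, adjusted p = 0.00029). Nrp1 was 377, 380.0 and 262 and 268, 237 and 235 and was not called (log2 difference 0.44, SE 0.16, adjusted p = 0.0747), but passed with the replicate number as a block (adjusted p 0.0440). Ephb3, an ephrin-B receptor, was 787, 742 and 898 in WT and 538, 565 and 435 in Pfp/Rag2-/- cells (log2 difference 0.66, SE 0.12, adjusted p = 0.00775). Among rarer genes, Efna4 was higher in WT (24.9, 30.4 and 25.8 against 11, 11.9 and 6.45, log2 difference 1.41, SE 0.31, adjusted p = 0.016), and Efna2 was lower (18.2, 20.0 and 47.9 against 98.6, 103 and 80.1, log2 difference -1.81, SE 0.37, adjusted p = 0.0124). Epha10, an Eph receptor without kinase activity, was 7.66, 10.5 and 7.37 in WT and 19.2, 22 and 19.3 in Pfp/Rag2-/- cells (log2 difference -1.17, SE 0.28, adjusted p = 0.0221). Efna4 and Epha10 passed the filter only through the group where each was higher, so their calls support nothing.

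The other called genes were all lower in WT: Plxnb1 (-0.77 on the log2 scale), Sema4f (-0.71), Plxnd1 (-0.55), Sema6b (-0.47), Sema4c (-0.36) and Sema7a (-0.31). With the replicate block Sema4d became called as lower (adjusted p 0.00432) and Sema6b was no longer called (0.0712). Pfp/Rag2-/- GFP+ cells also held more of the summed pericyte and fibroblast markers, 5075, 3097 and 2069 against 503, 541 and 914 in WT and 2171 to 2360.2 in culture, and the part of this in the host differences was not tested. Without Pfp/Rag2-/- library 2 the count of called genes went from 18 to 11, and without both GFP+ libraries numbered 1, which held the most macrophage marker RNA, it also went to 11; Plxnb3, Plxna2, Sema6a, Sema3a, Sema3d, Sema6c, Nrp2, Ephb3, Sema3e and Plxnd1 kept their calls in the latter.

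In the unsorted tumours the same host contrast gave a like picture, with less Plxnb3, Plxna2, Efna2, Sema6a and Sema3d and more Nrp2 in WT. In such mixed samples fewer cells of a type and less RNA per cell cannot be told apart. Of 51 genes tested 4 were higher and 11 lower in WT (15.1% and 14.8% of all genes tested), 29.4% called against 29.9% of all genes, with medians of -0.27 and -0.05. The libraries differ from the sorted ones, though the labels do not say whether the mice do. Called in the same direction in both comparisons were 14 genes, 77.8% of the 18 sorted calls and 93.3% of the 15 unsorted calls. Epha10 is among these 14 and among the 11 lower genes, with means of 8.67 in WT and 28.4 in Pfp/Rag2-/- unsorted tumours. Here too it passed the filter only through the Pfp/Rag2-/- libraries, so its calls in both comparisons support nothing. Over all genes the 2178 calls shared in direction were 48.4% of sorted and 47.1% of unsorted calls.

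Efna2, a ligand of EphA receptors, had the largest fall, from 107, 145 and 133 in Pfp/Rag2-/- to 54.4, 25.2 and 27.9 in WT unsorted tumours (log2 difference -1.89, SE 0.32, adjusted p = 0.0052). Plxnb3 was 2459.6, 2161 and 1802 in WT and 4908, 5803 and 7017 in Pfp/Rag2-/- tumours (log2 difference -1.46, SE 0.16, adjusted p = 0.00103). Every WT library lay under every Pfp/Rag2-/- one, and the means differed 2.76-fold. Plxna2 was 220.5, 310.4 and 285 and 744, 592 and 661 (log2 difference -1.30, SE 0.16, adjusted p = 0.00144). As in the sorted cells, its ligand Sema6a ran in parallel, at 1062, 1270.3 and 1309 in WT and 2323, 2737 and 2719 in Pfp/Rag2-/- tumours (log2 difference -1.10, SE 0.11, adjusted p = 0.000711). Sema3d was 1694, 2201 and 2097 in WT and 2988, 3008 and 3754 in Pfp/Rag2-/- tumours (log2 difference -0.70, SE 0.13, adjusted p = 0.00814), and Sema4f was 94.1, 49.5 and 65.3 and 140.4, 118 and 124 (log2 difference -0.91, SE 0.25, adjusted p = 0.0338), both without overlap.

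Higher in WT were Nrp2, at 1710.5, 1344 and 1540.4 against 1161, 1068 and 1100.0 (log2 difference 0.46, SE 0.10, adjusted p = 0.0146), and Sema3e, at 4238, 6321 and 4794 against 3592, 3534 and 3269 (log2 difference 0.54, SE 0.14, adjusted p = 0.0286). Ephb3 was 721, 583 and 748 in WT and 478, 448 and 573 in Pfp/Rag2-/- tumours (log2 difference 0.45, SE 0.14, adjusted p = 0.0436). All 3 rose without overlap, but each call ended when single libraries were left out: adjusted p was 0.0501 to 0.069 for Nrp2, 0.0599 to 0.0956 for Sema3e and 0.067 to 0.149 for Ephb3 in those cases, and likewise 0.0757 to 0.0954 for Sema4f. Sema4a, a semaphorin of myeloid and other immune cells, was 157, 231 and 271 in WT and 88, 63.4 and 64 in Pfp/Rag2-/- unsorted tumours (log2 difference 1.58, SE 0.25, adjusted p = 0.00391), and was called in the unsorted comparison alone. The macrophage marker sum was 13608 to 16203 in WT and 4504 to 5356 in Pfp/Rag2-/- unsorted tumours. As percentages of the GFP- mean, Sema4a was 3.37%, 4.97% and 5.82% in WT and 1.89%, 1.36% and 1.38% in Pfp/Rag2-/- unsorted libraries. The fit of all 18 libraries ended the unsorted calls of Sema3d (0.176), Nrp2 (0.0997), Sema3e (0.563) and Ephb3 (0.323). The count of 15 called genes became 8 without Pfp/Rag2-/- unsorted library 2 and 23 without WT unsorted library 1.

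**Figure D4:**
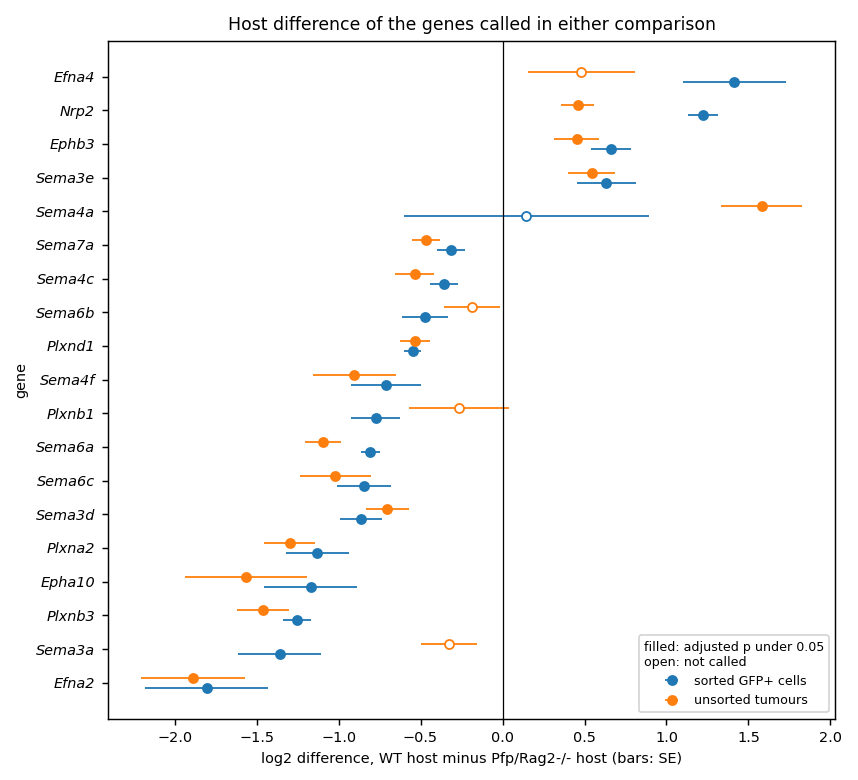
Log2 difference between WT and Pfp/Rag2-/- hosts (x axis, points with SE bars) for each guidance gene called in either host comparison (y axis), in sorted GFP+ cells (blue) and unsorted tumours (orange), filled where called. Plxnb3, Plxna2, Efna2 and Sema6a lie on the negative side in both, and Nrp2 lies farther to the positive side in sorted cells.

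Whether the host difference itself depended on sorting was tested with an interaction term over the 12 libraries. Nrp2 alone of 51 guidance genes passed, as higher, against 0.934% of all genes tested in either direction and 0.712% as higher. Its host difference was 1.23 in sorted cells and 0.46 in unsorted tumours, and the gap between them was 0.77 (SE 0.14, adjusted p = 0.0386). GFP- cells of WT tumours, which are part of the unsorted cells, also held Nrp2, at 2875, 5603 and 2631. The WT unsorted libraries, at 1710.5, 1344 and 1540.4, lay below every GFP- and every GFP+ library of WT tumours. The part of GFP- cells in the gap was not tested. The call was lost with edgeR on the recovered reads (adjusted p 0.0594), with TMM scaling (0.0548), with no filter (0.0591), in a fit of all 18 libraries (0.202) and without any 1 of 9 libraries (0.0797 to 0.116). For Sema3a, which was called in sorted cells alone, the interaction was not called (log2 difference -1.03, SE 0.33, adjusted p = 0.119), nor for Sema4a (log2 difference -1.44, SE 0.87, adjusted p = 0.384), so neither difference is shown to depend on sorting.

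The third comparison set the GFP- cells of WT tumours, rich in macrophage markers, against the GFP+ tumour cells of the same hosts. The membrane semaphorins Sema4a, Sema4d, Sema6d and Sema7a and the receptors Plxnc1, Plxnd1 and Nrp1 were higher in GFP- cells, while the secreted semaphorins Sema3e, Sema3d and Sema3b and the receptors Ephb4 and Plxna3 were higher in the tumour cells. Of 45 genes tested 18 were higher in GFP- cells and 15 lower (42.7% and 33.7% of all genes tested), 73.3% called against 76.4% of all genes, with medians of 0.21 and 0.19. Scaling by the total of recovered reads moved the median of all genes to -0.46 and the split to 15 higher and 20 lower, since GFP- libraries had size factors of 0.649 to 0.761 against 1.04 to 1.15 in the rest. No called gene changed direction under any of the scalings. Among the 45, 5 had all values of 1 group under 10 and so had to differ. Epha3 (1.47, 0 and 10.5 in GFP- and 61.3, 52.3 and 106 in GFP+ cells) also passed the filter only through the GFP+ libraries. The same holds for Efna5 (7.36, 3.08 and 14.5 in GFP- and 79.5, 92.2 and 59.9 in GFP+ cells). Such calls are among the counts above and support nothing.

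Sema4a had the largest rise, at 4601, 5454 and 3904 in GFP- and 174, 45.6 and 67.2 in GFP+ cells (log2 difference 5.81, SE 0.47, adjusted p = 9.49e-05). Sema4d was 10350.2, 9621 and 8771 in GFP- and 614, 352 and 425 in GFP+ cells, 20.7-fold higher (log2 difference 4.40, SE 0.20, adjusted p = 2.34e-05). Sema6d was 792, 706 and 1111 and 49.8, 34.2 and 94.9 (log2 difference 3.94, SE 0.39, adjusted p = 0.000196). For none of these 3 membrane ligands did the GFP+ libraries reach the GFP- range. Sema7a, a GPI-anchored semaphorin, and its receptor Plxnc1 were higher in the same fraction: Sema7a stood at 4745, 4104 and 2468 against 852, 796 and 771 (log2 difference 2.17, SE 0.24, adjusted p = 0.00028). Plxnc1 was 3643, 3563 and 2758 in GFP- and 124, 33.3 and 63.5 in GFP+ cells, 45.2-fold higher (log2 difference 5.66, SE 0.45, adjusted p = 8.76e-05). In WT GFP+ cells Sema4a and Plxnc1 were both highest in library 1, which also held the highest macrophage marker sum (7706, 2961 and 3866).

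**Figure D5:**
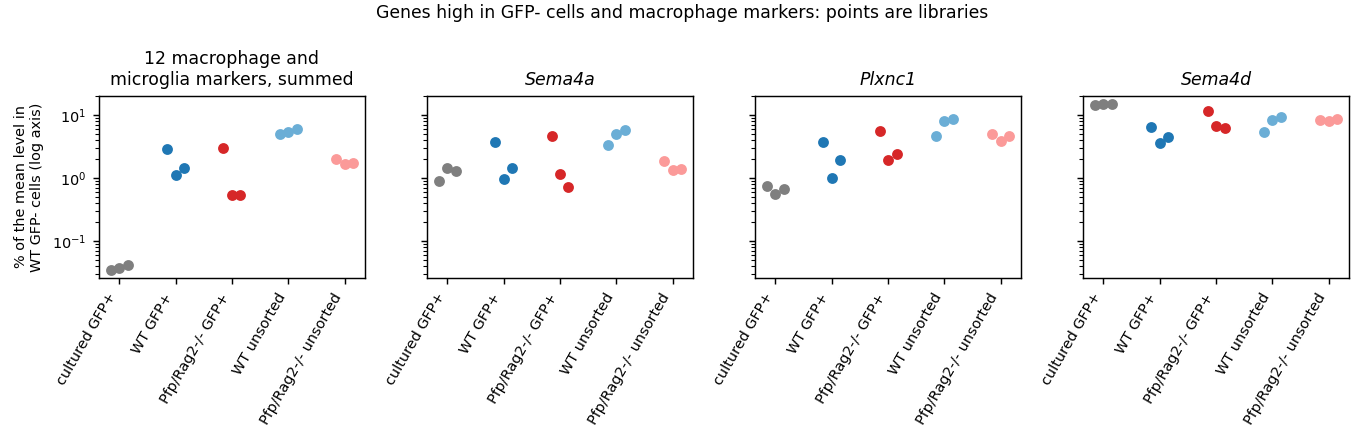
Summed level of 12 macrophage and microglia markers and levels of Sema4a, Plxnc1 and Sema4d in each library (points), as a percentage of the mean in WT GFP- cells (y axis, log scale), for the 5 other groups (x axis). Library 1 is the highest GFP+ library of either host in all 4 panels, and cultured cells have the lowest marker sum but hold Sema4d.

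For several ligand and receptor pairs the RNAs were higher in opposite fractions. Plxnb1, the receptor of Sema4d, was 128, 53.9 and 199 in GFP- and 427, 422 and 612 in GFP+ cells, opposite to Sema4d above. Sema3e was 48.6, 35.4 and 501 in GFP- against 3206, 3696 and 5319 in GFP+ cells (log2 difference -5.36, SE 0.96, adjusted p = 0.00217), whereas its receptor Plxnd1 was 6675, 8313 and 5702 against 1104, 1061 and 1012 (log2 difference 2.69, SE 0.14, adjusted p = 3.08e-05). Efnb2, the ligand of EphB4, was 139.8, 122 and 77.6 in GFP- and 17.2, 6.65 and 8.29 in GFP+ cells (log2 difference 3.34, SE 0.43, adjusted p = 0.000533; it passed the filter only through the GFP- libraries, so this call supports nothing), whereas Ephb4 was 61.8, 77 and 199.8 and 1458, 1771 and 1355 (log2 difference -3.93, SE 0.43, adjusted p = 0.000276). Efna1 was 35.3, 32.4 and 86.8 in GFP- and 605, 587 and 504 in GFP+ cells (log2 difference -3.58, SE 0.39, adjusted p = 0.000274), and its receptor Epha2 was 1359.6, 670.1 and 928 and 258, 323 and 462, higher in GFP- cells (log2 difference 1.48, SE 0.32, adjusted p = 0.0047). Nrp1 was 1936, 2030.5 and 2756 against 377, 380.0 and 262 (log2 difference 2.72, SE 0.20, adjusted p = 7.37e-05), while Nrp2, at 2875, 5603 and 2631 against 2343, 2419.9 and 2051, was not called (log2 difference 0.62, SE 0.28, adjusted p = 0.0854).

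Among the other genes higher in tumour cells, Sema3d was 47.1, 46.2 and 196 in GFP- and 1431, 1332 and 1926 in GFP+ cells (log2 difference -4.34, SE 0.56, adjusted p = 0.000551). Sema3b was 32.4, 41.6 and 105 and 1135, 1069.8 and 905 (log2 difference -4.28, SE 0.43, adjusted p = 0.000202). Plxna3, a neuropilin partner, was 141, 109 and 371 and 2502, 2400.0 and 2828 (log2 difference -3.84, SE 0.43, adjusted p = 0.000312). GFP- library 3 was the highest GFP- library for 14 of the 15 genes that were lower in GFP- cells, most visibly for Sema3e, and the part of tumour cell RNA in it was not tested. Plxnb2 stood at 5969.7 to 7628 in GFP- and 6395 to 7069 in GFP+ cells, overlapping and not called (log2 difference -0.00, SE 0.11, adjusted p = 0.975).

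The last comparisons set unsorted tumours against GFP+ cells of the same host to show which guidance RNAs differed before and after the sort. Several Eph receptors, Plxna4 and Sema5b averaged under 10 in the GFP+ cells of both hosts and more in unsorted tumours, and Plxnb3 was lower in unsorted tumours of both hosts. In WT, 14 of 50 genes tested were higher in unsorted tumours and 3 lower (10.3% and 6.46% of all genes tested), 34% called against 16.8% of all genes, with medians of 0.35 and 0.05. Quantile normalization gave 11 higher and 5 lower. In Pfp/Rag2-/- hosts 11 of 51 were higher and 6 lower (19.1% and 11.1% of all genes tested), 33.3% against 30.2%, with medians of 0.24 and 0.06. In WT 8 and in Pfp/Rag2-/- hosts 5 of the tested genes had every GFP+ value under 10, so they had to be higher in unsorted tumours to pass the filter. Efnb2 in WT (17.2, 6.65 and 8.29 in GFP+ cells, 42.4, 43.2 and 78.4 unsorted) also passed only through the unsorted libraries, as did Epha4 in Pfp/Rag2-/- hosts. Such calls are among the counts above and support nothing.

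Sema5b, Plxna4, Epha4, Epha5, Epha7, Epha8, Ephb1 and Ephb6 averaged under 10 in all 3 GFP+ groups and 10 or more in an unsorted group. Epha4, a receptor of both ephrin classes, was 0, 0.95 and 5.53 in WT GFP+ and 39.7, 49.5 and 111 in WT unsorted tumours. In Pfp/Rag2-/- hosts it was 5.48, 3.67 and 12 in GFP+ cells and 322, 120.5 and 123 in unsorted tumours, which alone took it past the filter, so no test is given. Pfp/Rag2-/- unsorted library 1 was thus well above the others. That library was the highest of its group for 8 of the 8 genes, and WT unsorted library 3 for 7 of 8. The neuron marker sum ran alongside, at 6670.0, 2361 and 2067 in Pfp/Rag2-/- unsorted libraries and 1133, 1206 and 1977 in WT unsorted libraries, against 441 to 658 and 732 to 794 in GFP+ cells and 75.5 to 166 in GFP- cells. Its part in the Eph receptor levels was not tested. The reads of Epha5 numbered 21, 30 and 48 in the WT unsorted libraries and 98, 29 and 33 in the Pfp/Rag2-/- unsorted libraries, and those of Ephb1 25, 32 and 97 and 143, 60 and 62. Epha6 was the rarest of the 53, with no read in culture or in any sorted library and 0, 7 and 9 and 14, 8 and 5 reads in the unsorted groups. In GFP- cells Plxna4 and Ephb6 were present, at 107, 46.2 and 73.6 and 73.6, 47.8 and 72.3.

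Of the genes with higher levels, Plxnb3 fell from 3856, 3928 and 4762 in WT GFP+ to 2459.6, 2161 and 1802 in WT unsorted tumours (log2 difference -0.97, SE 0.14, adjusted p = 0.00895), and from 9852, 9842 and 10092 to 4908, 5803 and 7017 in Pfp/Rag2-/- hosts (log2 difference -0.76, SE 0.12, adjusted p = 0.0045). In WT, Nrp2 (log2 difference -0.57, SE 0.11, adjusted p = 0.0193) and Efna1 (log2 difference -0.55, SE 0.12, adjusted p = 0.0255) were lower in unsorted tumours, with Efna1 at 419, 354 and 387 there. Sema6d was 158, 338 and 334 in WT unsorted tumours (log2 difference 2.24, SE 0.44, adjusted p = 0.0185), Plxnc1 was 153, 272 and 285 (log2 difference 1.82, SE 0.47, adjusted p = 0.0416) and Sema6b was 219.6, 285 and 253 (log2 difference 0.78, SE 0.16, adjusted p = 0.0231), all 3 above the GFP+ libraries, as they were in GFP- cells. Sema5a, the Plxnb3 ligand, was 85.8, 134 and 138 against 45, 53.2 and 52.5 (log2 difference 1.20, SE 0.24, adjusted p = 0.02). Without WT unsorted library 3 only Plxnb3 of these 7 kept its call, and adjusted p was 0.0796 for Nrp2, 0.0972 for Efna1, 0.0804 for Sema6d, 0.14 for Plxnc1, 0.0934 for Sema6b and 0.0907 for Sema5a. A fit of all 18 libraries ended the calls of Efna1 (0.15) and Sema5a (0.13). The count of 17 fell to 4 without that library, to 11 without WT unsorted library 2 and to 7 without WT GFP+ library 2.

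In Pfp/Rag2-/- hosts Plxna2 was 744, 592 and 661 in unsorted tumours, above every GFP+ library (log2 difference 0.86, SE 0.09, adjusted p = 0.00165). Plxna3 was 1176, 1489 and 1631 in unsorted and 2398, 2429 and 2731 in GFP+ cells (log2 difference -0.83, SE 0.12, adjusted p = 0.0037), and Epha2 was 182, 247 and 171 and 353, 308 and 642 (log2 difference -1.06, SE 0.28, adjusted p = 0.0291), both lower in unsorted tumours. Smaller differences were called for Sema6a (log2 difference 0.38, SE 0.07, adjusted p = 0.00948) and Sema3e (log2 difference 0.43, SE 0.08, adjusted p = 0.0073), whose unsorted libraries lay above all GFP+ ones. Sema3b was 946, 1011 and 1072 in unsorted tumours (log2 difference -0.28, SE 0.07, adjusted p = 0.024), Sema4f was 140.4, 118 and 124 (log2 difference -0.58, SE 0.13, adjusted p = 0.014) and Sema4g was 563, 651 and 534 against 709.6, 938 and 720.2 (log2 difference -0.43, SE 0.13, adjusted p = 0.0399), all lower. Sema7a was 1158, 1227 and 1352 against 1101, 1004 and 908 and higher (log2 difference 0.31, SE 0.09, adjusted p = 0.0343). The calls of Epha2, Sema3b, Sema4f, Sema4g and Sema7a each ended without at least 1 of the libraries (adjusted p 0.079 to 0.0849, 0.0655 to 0.0749, 0.0539, 0.0652 to 0.11 and 0.085 to 0.0988). In a fit of all 18 libraries 9 genes were called in place of 17 and none was lower. It ended the calls of Plxnb3 (adjusted p 0.0633), Plxna3 (0.0928), Epha2 (0.137), Sema4f (0.109), Sema4g (0.339), Sema3b (0.573), Sema7a (0.248), Sema6a (0.355) and Sema3e (0.726), and of the genes just named Plxna2 alone kept its call. Without Pfp/Rag2-/- GFP+ library 1 there were 26 calls.

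A list of 52 other genes of these pathways, co-receptors, cytoplasmic signal carriers and sheddases, was read beside the receptors and ligands. Against culture, 10 of 49 were higher and 27 lower in WT GFP+ cells (30.3% and 35.3% of all genes tested) and 14 of 50 were higher and 27 lower in Pfp/Rag2-/- GFP+ cells (35.1% and 37.1% of all genes tested). The median differences were -0.34 and -0.30, against -0.04 and -0.01 over all genes. Itga1, the integrin chain that binds Sema7a, had 4331 ± 203 (SD, n = 3) in culture. It fell to 1192 ± 37.8 in WT (log2 difference -1.86, SE 0.05, adjusted p = 5.26e-08) and 554 ± 21.2 in Pfp/Rag2-/- cells (log2 difference -2.96, SE 0.05, adjusted p = 8e-10). Dpysl3 and Crmp1, of the collapsin response mediator family that carries Sema3a signals, were also lower in WT cells (Dpysl3 log2 difference -1.47, SE 0.05, adjusted p = 1.79e-07; Crmp1 log2 difference -1.22, SE 0.11, adjusted p = 2.91e-05), and Dpysl3 in Pfp/Rag2-/- cells (log2 difference -1.81, SE 0.05, adjusted p = 1.06e-08). Higher in WT cells than in culture were Met, a kinase that plexin-B1 associates with (log2 difference 0.82, SE 0.07, adjusted p = 1.37e-05), and Cdk5, a kinase downstream of Sema3a (log2 difference 0.64, SE 0.06, adjusted p = 3.35e-05). Cd72, a receptor of Sema4d on immune cells, was 163, 70.3 and 108 in WT (log2 difference 2.46, SE 0.31, adjusted p = 0.000171) and 248, 57.9 and 26.7 in Pfp/Rag2-/- cells (log2 difference 1.91, SE 0.67, adjusted p = 0.0282), each time highest in library 1. Chn2, a Rac-regulating carrier of Eph signals, was higher in Pfp/Rag2-/- cells than in culture (log2 difference 2.10, SE 0.12, adjusted p = 7.03e-07). Kdr, the VEGF receptor that neuropilins assist, had no read in culture and was 263, 100.1 and 108 in Pfp/Rag2-/- GFP+ cells, at least 55.2-fold higher when set against a floor of 3 reads per cultured library. In WT GFP+ cells it was 21.1, 18.1 and 94.9, at least 15.7-fold above that floor. Kdr passed the filter through the tumour libraries and had to differ, so these folds support nothing. The highest Kdr library of either GFP+ group also held its highest endothelium marker sum (3519 and 2512). The part of this in the Kdr levels was not tested.

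Between hosts, 13 of 49 were higher and 11 lower in WT among sorted cells (15.3% and 15% of all genes tested) and 8 of 51 were higher and 12 lower among unsorted tumours (15.1% and 14.8% of all genes tested). The medians were 0.06 and -0.23, against -0.02 and -0.05 over all genes. L1cam, an adhesion molecule that forms a Sema3a receptor with Nrp1, was 7439, 7696 and 5005 in WT and 1622, 1423 and 1570.3 in Pfp/Rag2-/- GFP+ cells (log2 difference 2.10, SE 0.16, adjusted p = 0.000325). In unsorted tumours it was 3099.9, 3693 and 3435 and 1009, 853 and 1008 (log2 difference 1.83, SE 0.10, adjusted p = 8.56e-05), again without overlap. Culture held 14391 ± 144, so that Pfp/Rag2-/- GFP+ cells (log2 difference from culture -3.23, SE 0.05, adjusted p = 5.5e-10) were farther from culture than WT GFP+ cells. Ptpn13, a phosphatase of ephrin-B signalling, was 3051, 3297 and 2985 in WT and 919, 884 and 998 in Pfp/Rag2-/- GFP+ cells (log2 difference 1.74, SE 0.07, adjusted p = 3.57e-05), and the unsorted tumours gave log2 difference 1.58, SE 0.18, adjusted p = 0.00113. Rras2, an R-Ras type GTPase, was also higher in WT sorted cells (log2 difference 1.34, SE 0.10, adjusted p = 0.000296). Chn2 (sorted log2 difference -1.55, SE 0.18, adjusted p = 0.00144; unsorted log2 difference -1.0, SE 0.18, adjusted p = 0.00726) and Vav2, an exchange factor recruited by Eph receptors (sorted log2 difference -1.02, SE 0.08, adjusted p = 0.000283; unsorted log2 difference -0.98, SE 0.10, adjusted p = 0.000786), were lower in WT, as were Cdk5 in sorted cells (log2 difference -0.94, SE 0.06, adjusted p = 0.000159) and Mical1, an oxidase that acts on actin below plexins, in unsorted tumours (log2 difference -0.73, SE 0.11, adjusted p = 0.00293). Cd72 was higher in WT unsorted tumours (log2 difference 2.30, SE 0.27, adjusted p = 0.00129), where the macrophage marker sum was higher too. In the interaction fit 1 of 51 were higher and 0 lower (0.712% and 0.223% of all genes tested), the 1 being Farp1, an exchange factor of plexin signalling (log2 difference 0.81, SE 0.13, adjusted p = 0.0264). Without Pfp/Rag2-/- GFP+ library 1 that fit called 0 of all 16161 genes, and likewise 0 without Pfp/Rag2-/- unsorted library 2. The Farp1 call was thus lost in both cases.

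In GFP- against GFP+ cells 17 of 50 were higher and 25 lower (42.7% and 33.7% of all genes tested), with medians of -0.35 and, over all genes, 0.19. Cd72 (log2 difference 5.87, SE 0.35, adjusted p = 4.07e-05), the tyrosine kinase Fes (log2 difference 4.75, SE 0.23, adjusted p = 2.61e-05) and Kdr (log2 difference 4.51, SE 0.62, adjusted p = 0.000702) had the largest rises in GFP- cells. Chl1, an L1 family adhesion molecule (log2 difference -4.86, SE 0.64, adjusted p = 0.000596), Dpysl3 (log2 difference -4.25, SE 0.50, adjusted p = 0.000379) and Anks1b (log2 difference -3.70, SE 0.56, adjusted p = 0.00106) had the largest falls. Chl1 stood at 13347, 13031 and 12435 in WT GFP+ and 228, 280.4 and 1365 in GFP- cells. In unsorted tumours against GFP+ cells 8 of 50 were higher and 6 lower in WT (10.3% and 6.46% of all genes tested) and 21 of 51 were higher and 4 lower in Pfp/Rag2-/- hosts (19.1% and 11.1% of all genes tested). In WT the largest rises were those of Kdr (log2 difference 3.49, SE 0.60, adjusted p = 0.0132), Cd72 (log2 difference 2.24, SE 0.37, adjusted p = 0.012) and Ngef, the Eph-linked exchange factor ephexin (log2 difference 2.17, SE 0.40, adjusted p = 0.0165), and the largest falls those of Rnd3 (log2 difference -1.11, SE 0.29, adjusted p = 0.0406), L1cam (log2 difference -0.95, SE 0.17, adjusted p = 0.0147) and Tiam1 (log2 difference -0.56, SE 0.13, adjusted p = 0.0312). In Pfp/Rag2-/- hosts the neuronal exchange factor Kalrn (log2 difference 3.43, SE 0.55, adjusted p = 0.00523), Ngef (log2 difference 1.56, SE 0.33, adjusted p = 0.0132) and Chn1 (log2 difference 1.03, SE 0.22, adjusted p = 0.0127) rose most, beside the neuron marker sums given above, and L1cam (log2 difference -0.69, SE 0.08, adjusted p = 0.00229), Pick1 (log2 difference -0.44, SE 0.06, adjusted p = 0.00249) and Cdk5 (log2 difference -0.34, SE 0.08, adjusted p = 0.0187) fell most.

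Several of the 53 genes are neighbours in the genome, and neighbours did not always move alike. Efna1, Efna3 and Efna4 lie in a row on chromosome 3 (Efna1 at 89271733 to 89281142, with gaps of 32.8 kb to Efna3 and 10.4 kb from Efna3 to Efna4, per GENCODE vM21 on GRCm38). In tumour cells against culture Efna1 was higher (log2 1.65 in WT and 1.37 in Pfp/Rag2-/- hosts), while Efna3 (-1.38 and -1.02) and Efna4 (-1.25 and -2.66) were lower, all called, at levels of at most 24.5 for Efna3 and 68 for Efna4 in any of these libraries. Efna3 in both hosts and Efna4 in Pfp/Rag2-/- hosts passed the filter only through the cultured libraries, so these calls support nothing. Plxnb3 and Plxna3, 556.6 kb apart on the X chromosome, differed too: Plxna3 was 2502, 2400.0 and 2828 in WT and 2398, 2429 and 2731 in Pfp/Rag2-/- GFP+ cells and was not called between hosts (log2 difference 0.03, SE 0.08, adjusted p = 0.797), unlike Plxnb3.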

How the data were processed

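RNA of 18 libraries (6 groups of 3, grouped by the labels' genotype, sorting and source fields) was described by normalized counts, a signal scale that the authors deposited as 1 table. STAR 2.5.2b, DESeq2 and the build GRCm38 are named per the submitters' processing notes, and the library kit, which marks strand, per the labels' protocols; of the read counter and of the annotation release, the name is not given in the sources used here. Low values showed each library to be whole reads divided by 1 size factor (0.649 to 0.761 in GFP- and 1.04 to 1.15 in other libraries), so the reads were recovered, with 100% of values whole within 0.05 reads. Symbols (48435 of 48795 IDs), exonic lengths and positions came from GENCODE vM21 (GRCm38), and upstream sequences from RefSeq (GRCm38.p6).

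The main test was limma 3.58.1 (R 4.3.3) with a variance trend on log2(normalized count + 1), 2-sided, using the libraries of the groups compared and genes at 10 or more in at least 3 of them. P-values were adjusted by Benjamini-Hochberg over all genes tested and called under 0.05. A log2 difference on this scale understates the change of low genes. The count tests with edgeR 4.0.16 and DESeq2 1.42.0 on the recovered reads were alternatives, beside TMM scaling, quantile normalization, a pseudocount of 10, a filter at 50 or none, all 18 libraries in 1 fit, a replicate block and each library left out. Scaling by library total, leaving out both GFP+ libraries numbered 1, and keeping the tested genes when a library was left out were added after seeing the data. Scripts were tested on simulated data.

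Genes, lists, tests and markers were chosen with earlier results of these data known. Genes described in full were the 6 highest and 6 lowest called differences without overlap and with a mean of 100 or more in the higher group; of the 52 other pathway genes, the 3 highest and 3 lowest under the same conditions. The main tests held no block, so the main p-values of the sorted host comparison take no account of a pairing. Replicate numbers may pair the sorted libraries of the 2 hosts, since same-numbered libraries deviated together (correlations of 0.616, 0.483 and 0.102). However, not every library correlated best with its own number, and the labels name no shared animal, day or batch. In no other comparison did every pair exceed 0.1. Summed marker levels of endothelium, oligodendrocytes and astrocytes were 1711 to 2512, 8597 to 16190.1 and 4749 to 6096 in WT GFP+, 2479 to 3519, 16831 to 18579 and 4389 to 4456 in Pfp/Rag2-/- GFP+, 7087 to 8759, 6382 to 15713 and 932 to 2818 in GFP- and 2119 to 2287, 39299 to 41340.0 and 7381 to 7726 in cultured libraries.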

Additional observations from a re-analysis of the deposited data

Results flagged for a closer look

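Nrp2 stood out because its host difference was not the same in the 2 kinds of sample. In sorted GFP+ cells WT exceeded Pfp/Rag2-/- hosts by 1.23 on the log2 scale, in unsorted tumours by 0.46, and the interaction was 0.77 (limma, adjusted p = 0.0386). The higher level in WT was seen without overlap in both, with 3 of 3 WT libraries above the Pfp/Rag2-/- ones. The interaction was not called with edgeR, TMM scaling, no filter or all 18 libraries in 1 fit, nor without any 1 of 9 of the 12 libraries.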

How the results depend on the processing

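Of 1199 values of named genes recomputed under alternatives, 1094 kept their direction and call, 105 kept the direction and lost the call, and 0 reversed. Counts of called guidance genes within 1.5 times of those reported were found under each other alternative. Like counts need not be the same genes. The fit of all 18 libraries called 12 in sorted cells between hosts, 9 of them among the 18 of the main fit. In unsorted tumours between hosts it called 13, 10 of them among the 15. In sorted cells between hosts the count was 11 without both GFP+ libraries numbered 1, and 11 to 23 over single libraries left out. Between hosts in unsorted tumours single libraries left out gave 8 to 23. For WT unsorted tumours against GFP+ cells a filter at 50, which left 36 genes tested, gave 7, and single libraries left out gave 4 to 22. For the Pfp/Rag2-/- counterpart 1 fit of all 18 libraries gave 9, and single libraries left out 13 to 26. The interaction of host and sorting called 0 genes with no filter, with TMM scaling, with edgeR and with all 18 libraries, where 8, 7, 6 and 5 had an unadjusted p under 0.05, and 4 with DESeq2; single libraries left out gave 0 to 4, and limma as reported called 1, with 8 under an unadjusted 0.05. The cause of these changes was not tested.

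With the replicate block the sorted host comparison called 19 genes, 17 of them among the 18 called without it. Sorted libraries, GFP- and GFP+ alike, share a letter as well as a number in their titles, but the labels name no shared animal. Same-numbered GFP- and GFP+ libraries of WT tumours had correlations of 0.212, 0.0679 and 0.320. The block gave 37 for GFP- against GFP+ cells, 15 in unsorted tumours between hosts, 16 and 19 for unsorted against GFP+ cells in WT and Pfp/Rag2-/- hosts, 31 and 38 against culture and 1 for the interaction. Outside the sorted host comparison, correlations of same-numbered libraries ran from -0.411 to 0.320. In those comparisons the block ended the calls of Efna1 (adjusted p 0.05) and Plxnc1 (0.0749) in WT and of Epha2 (0.056) and Sema7a (0.0807) in Pfp/Rag2-/- unsorted tumours. Quantile normalization ended the WT unsorted calls of Sema6b (0.0598) and Sema5a (0.103), and edgeR those of Plxnc1 there (0.0549) and of Sema4f between hosts in unsorted tumours (0.0544). The call of Sema7a in Pfp/Rag2-/- unsorted tumours also ended with edgeR (0.0652), TMM scaling (0.0598) and no filter (0.0513), that of Sema4g there with no filter (0.0551), and that of Ephb3 between hosts in unsorted tumours with no filter (0.0622) and with scaling by the total of recovered reads (0.0528). Depth limits the genes with few reads, such as Epha5 to Epha8.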
